A study of Mus musculus with 20 samples.

Results

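The 8 genes Cd209a, Dpp4, Slamf7, Klrd1, Fscn1, Il12b, Zbtb46 and Batf3 are genes used to describe dendritic cells and were read by symbol from gene-level tables of mouse brain monocytes and microglia. All 8 were listed among the 16140 genes of a table of Cxcr4CreER mice (the Cre table) and among the 16536 genes of a table of Cxcr4-GFP reporter mice (the GFP table). Cells were taken from brain 3 days after a permanent photothrombosis, a stroke model in which an illuminated dye clots cortical vessels. The Cre table compares 3 libraries of KO monocytes and 3 of control monocytes, labelled TdT-positive, with 3 of KO microglia and 3 of control microglia, labelled TdT-negative. KO stands for a conditional deletion of Cxcr4, the receptor of the chemokine CXCL12, with a tamoxifen-dependent Cre, and control for Cre-carrying mice described as wild type. The GFP table compares 4 libraries of GFP-positive monocytes with 4 of GFP-negative microglia of reporter mice. Population and fluorescence therefore coincide in both tables and cannot be told apart. The titles of the GFP libraries carry the same unexplained tag, BrKo, as those of the KO libraries. The labels give no age, sex, other sort marker or tamoxifen schedule, and whether Cxcr4 was deleted in TdT-negative KO microglia is not shown.

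Dendritic cells take up antigen in tissues, mature and present it to T cells. Conventional dendritic cells depend on a lineage of their own, in which Zbtb46 and, for the cross-presenting subset, Batf3 act as transcription factors, whereas monocytes that enter inflamed tissue can take on some of the same surface receptors and cytokines. Cd209a encodes a C-type lectin of the DC-SIGN family, Dpp4 a cell-surface peptidase (CD26), Slamf7 a self-binding receptor of the SLAM family, Klrd1 the CD94 chain of natural killer receptors, Fscn1 the actin-bundling protein fascin of mature dendritic cells, and Il12b the p40 subunit shared by the interleukins 12 and 23.

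The promoter sequences of 3 genes that were higher in monocytes, Cd209a, Dpp4 and Slamf7, and of 2 of the genes that were not, Il12b and Fscn1, are shown so that the gene starts can be inspected. Each runs 5′ to 3′ from 250 bases before to 50 bases after the gene start of RefSeq (assembly GRCm38.p6), and capitals mark a motif match on either strand.
Cd209a, chr8:3748935-3749234, minus strand: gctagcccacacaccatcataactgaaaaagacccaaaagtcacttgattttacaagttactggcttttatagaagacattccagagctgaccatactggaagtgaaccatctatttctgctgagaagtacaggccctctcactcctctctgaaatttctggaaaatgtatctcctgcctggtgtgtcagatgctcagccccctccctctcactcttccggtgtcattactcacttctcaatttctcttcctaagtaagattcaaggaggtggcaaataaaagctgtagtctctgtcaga
Dpp4, chr2:62412182-62412481, minus strand: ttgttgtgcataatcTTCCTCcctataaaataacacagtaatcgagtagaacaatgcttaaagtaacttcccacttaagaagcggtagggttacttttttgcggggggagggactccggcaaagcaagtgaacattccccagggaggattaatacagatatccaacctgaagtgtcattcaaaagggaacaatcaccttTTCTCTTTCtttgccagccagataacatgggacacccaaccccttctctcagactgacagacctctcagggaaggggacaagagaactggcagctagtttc
Slamf7, chr1:171648950-171649249, minus strand: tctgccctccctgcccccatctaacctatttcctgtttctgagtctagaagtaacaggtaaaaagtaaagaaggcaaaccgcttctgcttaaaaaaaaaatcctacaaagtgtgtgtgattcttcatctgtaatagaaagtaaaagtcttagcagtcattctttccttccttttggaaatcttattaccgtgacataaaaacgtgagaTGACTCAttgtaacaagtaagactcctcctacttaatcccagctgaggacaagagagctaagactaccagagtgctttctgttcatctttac
Il12b, chr11:44399813-44400112, plus strand: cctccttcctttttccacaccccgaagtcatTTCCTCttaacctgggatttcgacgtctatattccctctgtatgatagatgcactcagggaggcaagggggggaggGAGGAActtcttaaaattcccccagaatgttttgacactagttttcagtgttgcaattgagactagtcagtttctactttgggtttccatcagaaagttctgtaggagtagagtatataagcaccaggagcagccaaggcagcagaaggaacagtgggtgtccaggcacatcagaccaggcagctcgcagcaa
Fscn1, chr5:142960105-142960404, plus strand: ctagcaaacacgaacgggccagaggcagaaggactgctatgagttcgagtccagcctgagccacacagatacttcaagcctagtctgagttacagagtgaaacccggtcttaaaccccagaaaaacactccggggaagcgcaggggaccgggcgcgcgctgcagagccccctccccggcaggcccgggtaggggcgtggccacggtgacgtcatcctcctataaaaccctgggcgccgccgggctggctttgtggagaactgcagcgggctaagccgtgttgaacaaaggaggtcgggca

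Of the 8 genes, 7 had an entry in the promoter table; Klrd1 is named only. The motifs searched were an AP-1 site (TGANTCA), an interferon response core (GAAANNGAA), a PU.1-type ETS core (GAGGAA) and an NF-kappaB site (GGNNTTTCC), each on both strands. In the printed windows, Slamf7 held an AP-1 match starting at -42, Dpp4 an interferon core match at -51 and an ETS core match at -235, and Il12b ETS core matches at -219 and -143, while the Cd209a and Fscn1 windows held none of the 4 motifs. Of the windows not printed, that of Zbtb46 held an AP-1 match at -61 and that of Batf3 an ETS core match at -153. Over 32851 windows of the same length, 7.81% held the AP-1 site, 8.56% the interferon core, 28.3% the ETS core and 5.82% the NF-kappaB site. A match describes letters in the window and not a used site.

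The libraries differed widely in depth. They held 9732177 to 56803993 reads in the Cre table and 617302 to 14927208 reads in the GFP table. A read was worth 0.375 to 2.19 normalized counts in a Cre library and 0.104 to 2.58 in a GFP library. In the GFP table, 3 libraries detected few genes, with 3029 in GFP monocytes 3, 3489 in GFP microglia 4 and 5598 in GFP microglia 3, against 10422 to 14498 in the other GFP libraries. The monocyte marker list summed to 116076 to 197969 normalized counts in the Cre monocytes and to 2253 to 7967 in the Cre microglia, and the microglia list to 21672 to 35479 and 182672 to 301070, so both labels matched their markers, with microglial transcripts present in every monocyte library. In these bulk samples, fewer cells of a type and less RNA per cell cannot be told apart.

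In the Cre table, Cd209a, Dpp4, Slamf7 and Klrd1 were higher in monocytes than in microglia, and this held in KO and in control mice. The other 4 genes did not share this pattern. Fscn1 lay lower in monocytes, and Zbtb46 and Batf3 were scattered or lower. Il12b was read in every KO library, in 2 of 3 control microglia libraries and in no control monocyte library. None of these 4 passed the main test, given below, between populations or between KO and control. All 8 genes passed the filter on low values (10 or more normalized counts in at least 3 libraries). Of these, 4 rose and 0 fell in KO monocytes against KO microglia by limma's moderated test (Benjamini-Hochberg adjusted p under 0.05), where 3.85% of 12432 tested genes rose and 2.98% fell. In control monocytes against control microglia, 4 rose and 0 fell as well, against 3.46% and 3.06% of all tested genes. Under scaling by total reads the split of all genes in KO mice was 375 higher and 460 lower, against 479 and 370 with the deposited scaling, with the median of all genes shifted by -0.24 in KO and -0.16 in control mice on the log2 scale, and the same 4 members rose, while Fscn1 fell in KO mice.

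Markers of other myeloid cells moved with the same comparison. Neutrophil markers, all 11 listed, summed to 40537 to 75875 normalized counts in KO monocytes, 18437 to 42544 in control monocytes, 1373 to 4146 in KO microglia and 908 to 1924 in control microglia. Of these 11 genes, 5 rose and 0 fell in monocytes of each genotype by limma, with a median log2 difference of 6.30 in KO and 6.88 in control mice. Mmp8, Mmp9, Ltf and Ngp, which encode granule proteins of neutrophils, were at 0 in all microglia of both genotypes. Markers of border-associated macrophages, all 6 listed, summed to 39949 to 49576 in KO monocytes, 44567 to 52933 in control monocytes, 1504 to 2153 in KO microglia and 2020 to 3469 in control microglia. Of the 5 tested, 2 rose and 0 fell in each genotype, and Lyve1, a defining marker of these macrophages, was at 0 in all 6 monocyte libraries. The part of neutrophils and border-associated macrophages in the results on Cd209a, Dpp4, Slamf7 and Klrd1 was not tested.

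**Figure D1:**
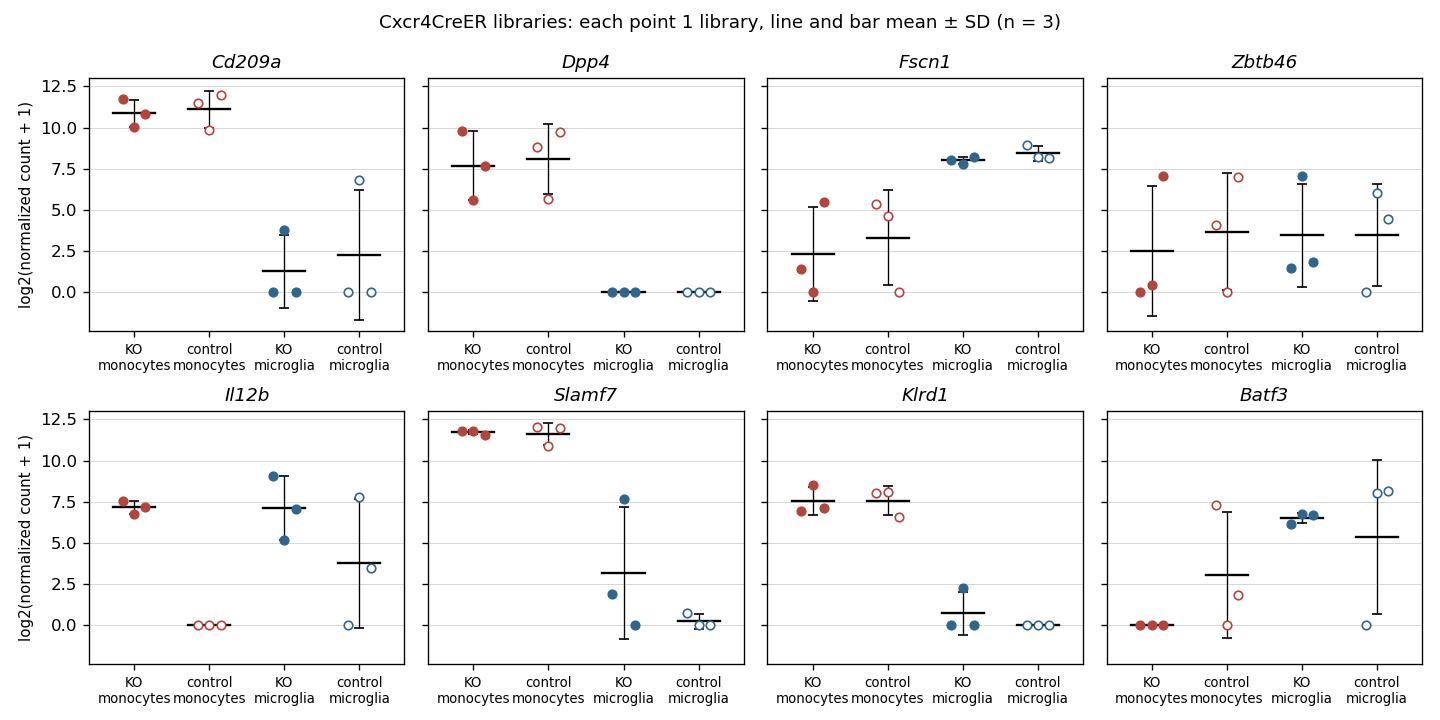
Level of each gene as log2(normalized count + 1) in the 12 Cre libraries, with KO as filled and control as open points, monocytes in red and microglia in blue. Black lines and bars give the mean and SD of 3 libraries; all monocyte points lie above all microglia points for Cd209a, Dpp4, Slamf7 and Klrd1, and below them for Fscn1.

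Cd209a had 3381, 1074 and 1845 normalized counts in KO monocytes, against 0, 13.1 and 0 in KO microglia. In control monocytes it had 2871, 926 and 4034 normalized counts, against 0, 112 and 0 in control microglia. The 6 monocyte libraries thus all lay above the 6 microglia libraries, and 1 microglia library of each genotype carried reads. On the log2(value + 1) scale the difference was 9.61 in KO mice (SE 1.75, adjusted p = 0.00643, limma, n = 3 each) and 8.83 in control mice (SE 1.75, adjusted p = 0.0103). The control call was lost when whole reads were tested with edgeR (adjusted p = 0.124) or DESeq2 (0.0694). Cd209a belongs to a cluster of related lectin genes whose reads the counting could split. Of 6 relatives 5 were listed, and only Cd209c was tested. It had 1.13 to 114 normalized counts in KO monocytes, 142 to 283 in control monocytes, 25.9 to 96.7 in KO microglia and 45.3 to 139 in control microglia. Cd209c was not called in any comparison. The 5 listed relatives, without Cd209a, summed to 1.13 to 114 in KO monocytes and 99.4 to 714 in KO microglia. In control mice they summed to 142 to 380 in monocytes and 60.1 to 226 in microglia. Their part in the Cd209a result was not tested.

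Dpp4, the peptidase CD26, was read in every Cre monocyte library and in no Cre microglia library. It had 897, 47.6 and 202 normalized counts in KO monocytes and 454, 50.5 and 840 in control monocytes. With 0 reads in each microglia group, a floor of 3 reads over the group stands at 1.07 normalized counts in KO and 0.831 in control microglia. Against that floor, the mean was at least 356-fold higher in KO monocytes and at least 539-fold higher in control monocytes. Such floors, here and below, cover counting error only and not the spread between libraries. The fitted difference, which is no bound, was 7.69 in KO mice (SE 1.4, adjusted p = 0.00637, limma) and 8.08 in control mice (SE 1.4, adjusted p = 0.00503). Of the other members of the peptidase family, 5 were tested and 0 were called in each of the Cre comparisons by limma.

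Slamf7 had 3573, 3644 and 3042 normalized counts in KO monocytes, against 2.74, 202 and 0 in KO microglia. In control monocytes it had 4146, 1889 and 4129, against 0.703, 0 and 0 in control microglia, a single read over the group. Its level varied little among the KO monocytes, with a mean of 3420 ± 329 (SD, n = 3), against 3388 ± 1298 in control monocytes (SD, n = 3). The difference between populations was 8.55 on the log2 scale in KO mice (SE 1.53, adjusted p = 0.00581, limma) and 11.38 in control mice (SE 1.53, adjusted p = 0.000926). KO microglia 2, which held 202 normalized counts of Slamf7, also held the 13.1 of Cd209a and the only Klrd1 reads of the Cre microglia. Its monocyte-list sum was 4633, within the 2253 to 5351 of the KO microglia, and its neutrophil-list sum was 4146, against 1373 and 1965 in the other two. Their part in the Slamf7 value was not tested. Without that library the KO difference was 10.78. With edgeR on whole reads the KO calls of Slamf7 (adjusted p = 0.0643) and Klrd1 (0.0649) were lost.

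Klrd1 (CD94), which pairs with NKG2 chains on natural killer cells, had 124, 362 and 139 normalized counts in KO monocytes, against 0, 3.74 and 0 in KO microglia. In control monocytes it had 264, 277 and 94.6, against 0 in all 3 control microglia libraries. All 6 monocyte libraries were above all microglia libraries. The log2 difference was 6.78 in KO mice (SE 1.14, adjusted p = 0.00411, limma) and 7.58 in control mice (SE 1.14, adjusted p = 0.00209), and the control mean was at least 255-fold above the floor. Of the NKG2 partners, Klrc1 is not listed in the Cre table and Klrc2 was at 0 in every Cre monocyte library. Klrk1, the activating receptor NKG2D, which does not need CD94, rose in control monocytes, with 749, 1009 and 1423 normalized counts, against 17.6, 20.7 and 41.9 in control microglia (log2 difference 5.31, SE 0.97, adjusted p = 0.00676, limma). In KO mice Klrk1 had 869, 242 and 190 in monocytes and 22.8, 33.7 and 237 in microglia, which overlap and were not called.

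Natural killer markers were present beside Klrd1. Of 9 listed markers 6 were in the Cre table, and their summed level was 48.1 to 456 normalized counts in KO monocytes, 86.1 to 559 in control monocytes, 9.48 to 39.3 in KO microglia and 20.7 to 92.1 in control microglia. Granzyme A (Gzma) was at 0 in all microglia, in 1 KO monocyte library and in 2 control monocyte libraries, and Klrb1c, the NK1.1 antigen, was at 0 in all control monocytes and in 2 of the 3 KO monocyte libraries. T cell markers, 7 of 12 listed, summed to 224 to 896 in KO monocytes, 34 to 244 in control monocytes, 129 to 173 in KO microglia and 117 to 242 in control microglia. By limma, 3 natural killer and 4 T cell markers were tested, and 0 of them were called between monocytes and microglia in either genotype. Natural killer and T cells can express Klrd1, Slamf7 and Dpp4; their part in these results was not tested. By library, the natural killer sum was 262, 456 and 48.1 in KO monocytes and 86.1, 204 and 559 in control monocytes. The T cell sum was 402, 896 and 224 in KO monocytes and 34, 151 and 244 in control monocytes. KO monocytes 2, with the highest natural killer sum of the KO monocytes and the highest T cell sum of the Cre libraries, also had the highest Klrd1 level, 362 normalized counts. Control monocytes 3, with the highest natural killer and T cell sums of the control monocytes, had the lowest Klrd1 level of the Cre monocytes, 94.6.

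Fscn1 ran the other way. It had 1.74, 0 and 44.1 normalized counts in KO monocytes, against 260, 223 and 297 in KO microglia. In control monocytes it had 39.5, 24.1 and 0, against 496, 301 and 279 in control microglia. Every monocyte library lay below every microglia library, yet neither difference passed the test: it was -5.70 on the log2 scale in KO mice (SE 1.62, adjusted p = 0.059, limma) and -5.11 in control mice (SE 1.62, adjusted p = 0.0939). With a pseudocount of 10 both were called (adjusted p = 0.0245 in KO and 0.0276 in control mice), and the KO difference also under total-read scaling (0.0487) and without KO monocytes 3 (0.0251). Counting genes whose groups do not overlap in either direction, 6 of 8 members qualified in KO mice and 5 of 8 in control mice, beside 27.5% and 22.1% of all tested genes. Batf3 was the sixth in KO mice. The smallest p of an exact permutation test with 3 against 3 libraries is 0.1, which all of these reached, so that test cannot pass 0.05. Fascin is also made outside the myeloid cells. Endothelial markers summed to 409 to 566 normalized counts in KO monocytes, 388 to 1126 in control monocytes, 233 to 661 in KO microglia and 377 to 477 in control microglia, and neuronal markers to 22.6 to 282, 232 to 676, 3.74 to 253 and 0 to 246 in the same groups; their part was not tested.

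The GFP table, made from total RNA with another kit, gave values for the same genes at lower depth. Only Fscn1 and Slamf7 passed its filter (10 or more in at least 4 libraries), and the other 6 had too few values for the test. Fscn1 had 26.3, 1.87, 0 and 46.0 normalized counts in GFP monocytes, against 382, 490, 873 and 415 in GFP microglia. In monocytes it fell by 6.04 on the log2 scale (SE 1.47, adjusted p = 0.0422, limma; two-sided exact permutation p = 0.0286, the smallest that 4 against 4 allows). That permutation takes the 8 libraries as independent, although each animal or pool gave both populations. Swapping the populations within the 4 animals or pools, chosen after seeing the data, gave an exact permutation p of 0.125 for Fscn1, lower in 4 of 4 pairs, and likewise 0.125 for Slamf7, higher in 4 of 4 pairs, which is the smallest p that 4 pairs allow. Of the members, 0 rose and 1 fell, beside 0.415% and 0.493% of 7706 tested genes, and under total-read scaling 56 of those genes were higher and 40 lower, against 32 and 38. With the shared animal or pool as a block the Fscn1 call was lost (adjusted p = 0.0771), as it was without any single microglia library, with adjusted p of 0.101 without GFP microglia 1, 0.144 without 2, 0.246 without 3 and 0.128 without 4. Without the 3 libraries of few detected genes the difference was -4.81 (adjusted p = 0.00427, limma).

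Slamf7 had 81.5, 19.0, 287 and 104 normalized counts in GFP monocytes, against 10.3, 3.87, 1.25 and 0 in GFP microglia. The groups did not overlap, as for 9.41% of the tested genes, but the difference of 4.66 on the log2 scale was not called (SE 1.95, adjusted p = 0.478, limma; exact permutation p = 0.0286). It was called without the 3 libraries of few detected genes, at 2.91 (adjusted p = 0.0313), and with DESeq2 on whole reads (adjusted p = 0.00659).

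Cd209a was read in 3 of 4 GFP monocyte libraries, with 49.5, 46.0, 0 and 29.1 normalized counts, and in no GFP microglia library. Dpp4 likewise had 55.8, 20.9, 0 and 12.1 in GFP monocytes, against 0 in all 4 GFP microglia. Against the floor of 3 reads over the microglia, 0.717 normalized counts, the means were at least 43.5-fold and at least 31-fold higher in monocytes; the exact permutation p was 0.143 for each. The library at 0 for both genes was GFP monocytes 3, the one with 3029 detected genes. Klrd1 had 22.6, 0, 0 and 7.27 in GFP monocytes and 0, 1.29, 0 and 0 in GFP microglia (exact permutation p = 0.429). Its monocyte libraries at 0 were GFP monocytes 3 and GFP monocytes 2, the deepest GFP library with 14927208 reads.

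**Figure D2:**
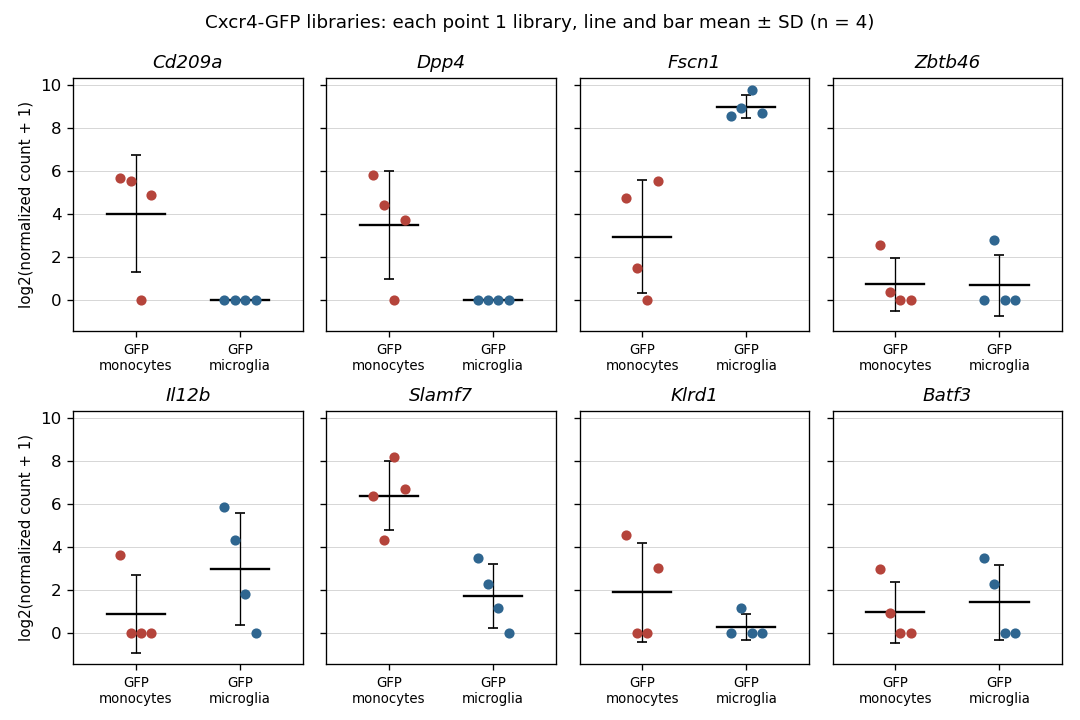
Level of each gene as log2(normalized count + 1) in the 8 GFP libraries, monocytes in red and microglia in blue, with the mean and SD of 4 libraries as black lines and bars. The groups do not overlap for Fscn1, higher in microglia, and Slamf7, higher in monocytes; Cd209a and Dpp4 are at 0 in every microglia library.

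Zbtb46 and Batf3, the members that encode transcription factors, were not called between monocytes and microglia in limma's fit of all Cre groups. Zbtb46 had 0, 0.375 and 132 normalized counts in KO monocytes and 15.8, 0 and 129 in control monocytes. In microglia it had 1.8, 131 and 2.59 in KO and 0, 64.0 and 20.5 in control libraries. A single library carried most of the signal in each group, and the log2 difference between monocytes and microglia was -0.96 in KO (SE 2.51, adjusted p = 0.897, limma) and 0.21 in control mice (SE 2.51, adjusted p = 0.978). With errors of this size, a difference of several log2 units would not have been detectable.

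Batf3 was at 0 in all 3 KO monocyte libraries, against 70.2, 107 and 102 normalized counts in KO microglia. In control monocytes it had 161, 0 and 2.56, against 0, 259 and 279 in control microglia. The KO monocyte mean was at least 165-fold lower than that of KO microglia, counted from a floor of 0.564 normalized counts. This floor covers counting error only, and not a spread between libraries such as the 161, 0 and 2.56 of control monocytes. The difference in KO mice, -6.53 on the log2 scale, did not pass the test (SE 2.25, adjusted p = 0.119, limma), but it did with DESeq2 on whole reads (adjusted p = 0.0032) and in a fit of these 2 groups alone (0.00614). In control mice it was -2.33 (SE 2.25, adjusted p = 0.624, limma). In the GFP table Zbtb46 had 5.01, 0.312, 0 and 0 normalized counts in monocytes and 0, 6.02, 0 and 0 in microglia. Batf3 had 6.89, 0.936, 0 and 0 in GFP monocytes and 10.3, 3.87, 0 and 0 in GFP microglia. Both were near 0 in both populations and too low for the test.

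Il12b, the p40 subunit, was read in every KO library and in none of the control monocytes. KO monocytes had 187, 106 and 146 normalized counts, 717 reads in all, against 0, 0 and 0 in control monocytes. The KO mean of 146 ± 40.2 (SD, n = 3) was at least 122-fold above the floor of 1.2 normalized counts in control monocytes. That floor covers counting error only, and not a spread between libraries such as the 0, 224 and 10.3 of control microglia. Of the 8 members, Il12b alone showed no overlap between KO and control monocytes, as did 8.82% of all tested genes. The log2 difference of 7.17 did not pass the test across all genes (SE 1.76, adjusted p = 0.343, limma, with adjusted p from 0.00159 to 0.708 over 15 alternatives). The only alternative that called it was DESeq2 on whole reads. In microglia Il12b had 541, 35.6 and 134 normalized counts in KO and 0, 224 and 10.3 in control libraries, which overlap (log2 difference 3.35, SE 1.76, adjusted p = 1). The difference between the 2 genotype effects, 3.82, was not called (SE 2.49, adjusted p = 0.999).

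Between populations, Il12b differed by 0.05 on the log2 scale in KO mice (SE 1.76, adjusted p = 0.996, limma), with overlapping values. In control mice the monocytes at 0 stood against a microglia mean of 77.9 (log2 difference -3.77, SE 1.76, adjusted p = 0.267). In the GFP table it had 11.3, 0, 0 and 0 in monocytes and 56.8, 18.9, 2.5 and 0 in microglia (exact permutation p = 0.257). The partner subunit of interleukin 23, Il23a, had 63.0 to 877 normalized counts in KO monocytes, 89.5 to 222 in control monocytes, 19.0 to 64.7 in KO microglia and 17.9 to 107 in control microglia. Il12a, the partner in interleukin 12, is not listed in the Cre table. Of the 4 tested genes of the interleukin 12 family list, 0 were called in any Cre comparison by limma.

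No member was called between KO and control by limma. In KO against control monocytes 0 members were called by limma, beside 0.0402% of all 12432 tested genes. By limma's unadjusted p under 0.05 there was 1 member (Il12b), beside 756 of all tested genes. With edgeR 0 members and 0 of all genes were called. DESeq2 called 2 members (Il12b and Batf3), beside 338 of the 12432 genes. In KO against control microglia 0 members were called by limma, edgeR or DESeq2, and 0 had an unadjusted p under 0.05 by limma. Over all 12432 tested genes, limma called 0.0322%, edgeR 0 and DESeq2 108, and 439 had an unadjusted p under 0.05 by limma. No overlap was seen for 0 of 8 members and for 9.46% of all genes. For the term comparing the genotype effect of monocytes with that of microglia, limma called 0% of all genes (590 had an unadjusted p under 0.05). DESeq2 called 276 of the 12432 genes, and 0 members were called by limma, edgeR or DESeq2. The 4 genes high in monocytes had log2 differences between KO and control monocytes of -0.23 for Cd209a (SE 1.75), -0.38 for Dpp4 (SE 1.4), 0.10 for Slamf7 (SE 1.53) and -0.05 for Klrd1 (SE 1.14), with an adjusted p of 1 each. Errors of more than 1 log2 unit leave even differences of several log2 units undetectable. In the same comparison Il12b, with a difference of 7.17 (SE 1.76), was not called (adjusted p = 0.343, limma).

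**Figure D3:**
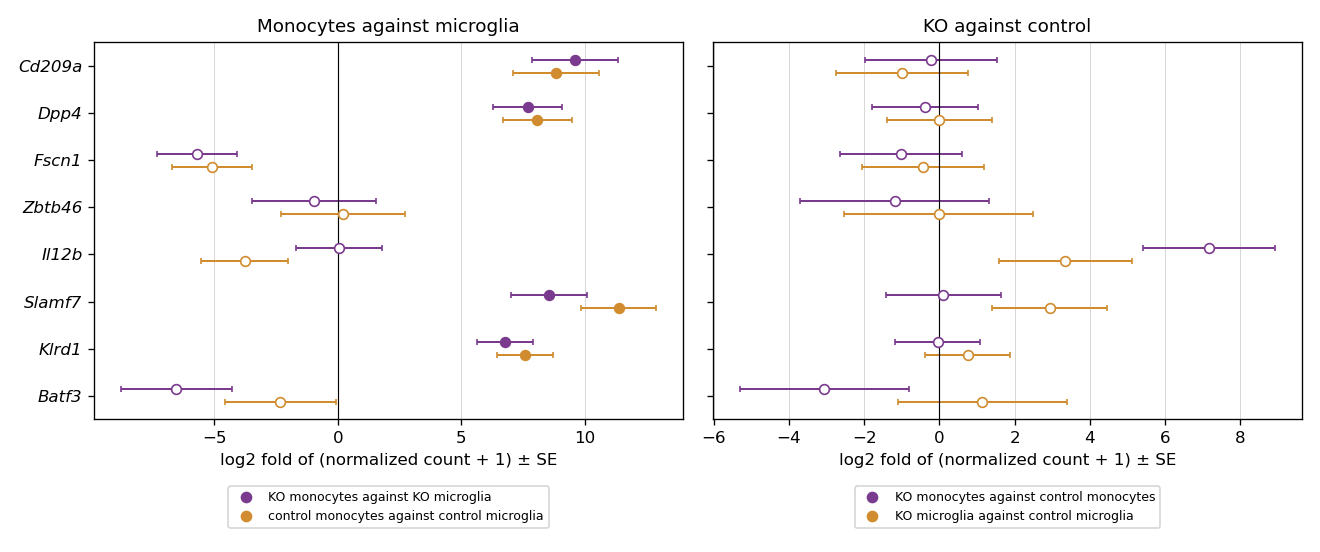
Log2 fold of (normalized count + 1) with its SE for each gene in the Cre table, monocytes against microglia on the left and KO against control on the right. Filled points passed limma's test after Benjamini-Hochberg adjustment over all tested genes; they are the 4 genes Cd209a, Dpp4, Slamf7 and Klrd1 in both genotypes on the left, and none on the right, where Il12b in monocytes lies farthest from 0.

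Among the partners of Slamf7, the adaptor gene Sh2d1b1 (EAT-2), which couples SLAM receptors to signalling in natural killer cells, rose in KO against control monocytes. It had 517, 398 and 647 normalized counts in KO monocytes, against 0 in all 3 control monocytes, at least 435-fold above the floor (log2 difference 9.0, SE 1.28, adjusted p = 0.0377, limma; 0.0159 to 0.459 over the other limma settings, 2.28e-06 with DESeq2 and 0.708 with edgeR). Its KO microglia also held more, with 72.9, 69.3 and 115 normalized counts, against 0, 17.7 and 0 in control microglia, without overlap but not called (log2 difference 4.99, SE 1.28, adjusted p = 0.832). The related gene Sh2d1b2 had a mean of 39.9 normalized counts in KO monocytes and was at 0 in all control monocytes (log2 difference 5.33, SE 1.03, adjusted p = 0.229); reads of these similar genes could have been split between them. Sh2d1b1 was the only called gene of the 10 tested in the list of SLAM receptors and adaptors, whose median difference was 0.56 on the log2 scale, against 0.05 over all genes. The call was kept in 7 of 15 alternatives. Besides edgeR, it was lost with a filter at 50 (adjusted p = 0.108, limma), under total-read scaling (0.0545) and in the fit of the 2 groups alone (0.459). It was also lost without control monocytes 2 (adjusted p = 0.0878) and without KO monocytes 1 (0.188), 2 (0.138) or 3 (0.0991).

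Other dendritic cell genes gave a divided picture, counted over lists chosen with earlier results of these data known. Of the conventional dendritic cell list, 9 genes were tested, and 2 rose and 0 fell in monocytes of each genotype. These were Runx3, a transcription factor, with 1753, 2109 and 1879 normalized counts in KO monocytes, against 0.912, 3.74 and 0 in KO microglia (log2 difference 9.84, SE 1.07, adjusted p = 0.000247, limma), and Napsa, an aspartic protease, with log2 differences of 9.0 in KO (SE 0.96, adjusted p = 0.000221, limma) and 9.84 in control mice (SE 0.96, adjusted p = 0.000119). The list's median difference was 2.41 in KO and 2.64 in control mice, against -0.25 and -0.24 over all tested genes. Flt3, the growth factor receptor of the lineage, had 162 to 235 normalized counts in KO monocytes, 198 to 330 in control monocytes, 73.0 to 170 in KO microglia and 2.81 to 131 in control microglia, and was not called.

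For the cross-presenting subset, 8 genes of its list were tested, and 0 rose and 1 fell in each genotype. The gene that fell was the adhesion molecule Cadm1, with log2 differences of -5.72 in KO (SE 1.36, adjusted p = 0.026, limma) and -7.64 in control mice (SE 1.36, adjusted p = 0.00583). The KO call was lost with edgeR (adjusted p = 0.0538) and on leaving out any single library, with 0.0974, 0.0881 and 0.0692 without KO microglia 1, 2 and 3 and 0.0851, 0.0633 and 0.0553 without KO monocytes 1, 2 and 3. The control call was lost with edgeR (0.0696) and in the fit of the 2 groups alone (0.063). Clec9a, a defining receptor of that subset, was at 0 in 2 of 3 KO monocyte libraries and in all control monocytes and all microglia. The median difference was -0.16 in KO and -1.64 in control mice.

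Of 10 tested genes of the second conventional subset and of monocyte-derived dendritic cells, 2 rose and 1 fell in KO monocytes and 1 rose and 1 fell in control monocytes. The lectin Clec10a rose in KO monocytes, with 274, 414 and 127 normalized counts, against 0 in all KO microglia (log2 difference 7.93, SE 1.80, adjusted p = 0.0209, limma). The call was lost with edgeR (adjusted p = 0.102), without KO monocytes 1 (0.065) or 2 (0.0659) and without KO microglia 1 (0.0659), 2 (0.0625) or 3 (0.0676). In control mice it had 56.8, 4.39 and 710 in monocytes and 0, 0 and 23.9 in microglia, which was not called. Tnip3, an inhibitor of NF-kappaB signalling, rose by 6.07 in KO (SE 1.17, adjusted p = 0.00892) and by 5.42 in control monocytes (SE 1.17, adjusted p = 0.016). The control call was lost with edgeR (0.055), in the fit of the 2 groups alone (0.0904) and without control monocytes 1 (0.0603) or 2 (0.057). The integrin Itgam, high in microglia, fell by 1.4 in KO monocytes (SE 0.20, adjusted p = 0.00168) and fell by 1.21 in control monocytes (SE 0.20, adjusted p = 0.00409). The list's median difference was 0.34 in KO and 1.83 in control mice.

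The list of mature dendritic cells, to which Fscn1 is close in function, had 16 tested genes. In KO monocytes 1 rose and 1 fell, and in control monocytes 2 rose and 1 fell, with medians of 1.31 and -0.01. The signalling adaptor Traf1 rose in both, by 9.03 in KO (SE 0.87, adjusted p = 0.000113, limma) and by 6.06 in control mice (SE 0.87, adjusted p = 0.00159). The costimulatory receptor Cd40 rose in control monocytes, with 1043, 3142 and 1641 normalized counts, against 4.92, 52.2 and 126 in control microglia (log2 difference 5.68, SE 1.22, adjusted p = 0.0156, limma; 0.054 without control monocytes 2). In KO mice Cd40 had 2848, 168 and 1917 in monocytes, against 38.3, 71.1 and 60.3 in microglia, without overlap but not called (log2 difference 4.13, SE 1.22, adjusted p = 0.0686), and it was called in 4 of 15 alternatives. The difference between the 2 genotypes' effects was not called (-1.56, SE 1.72, adjusted p = 0.999). Cd83, a surface protein of mature dendritic cells, fell by 1.28 in KO (SE 0.26, adjusted p = 0.0133) and fell by 1.2 in control monocytes (SE 0.26, adjusted p = 0.0178). The KO call of Cd83 was lost without KO microglia 1 (0.0617), and the control call without control monocytes 2 (0.0619) or 3 (0.0539) or control microglia 2 (0.0661). Of 14 tested transcription factors of dendritic cells, Nfil3 rose in KO monocytes, by 3.93 (SE 0.81, adjusted p = 0.0136, limma), and 0 rose or fell in control monocytes, where Nfil3 differed by 2.00 (SE 0.81, adjusted p = 0.198). The KO call was lost without KO monocytes 1 (0.0591) and without KO microglia 2 (0.0529) or 3 (0.0566). No gene of these 5 lists was called between KO and control, or in the GFP table.

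The 6 Cre monocyte libraries differed more in Dpp4 and Cd209a than in Slamf7. The lowest levels of both Dpp4 and Cd209a were those of KO monocytes 2 and control monocytes 2, the libraries from the animals that gave no microglia library, with 56803993 and 10406321 reads. Control monocytes 2 also had the lowest Slamf7 level, 1889 normalized counts, and the lowest monocyte-list sum of the 6, 116076, followed by KO monocytes 2 at 125223; their part in these levels was not tested. Klrd1, by contrast, was highest in KO monocytes 2, at 362. Without control monocytes 2, the log2 difference of Dpp4 between KO and control monocytes was -1.58, against -0.38 with it.

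**Figure D4:**
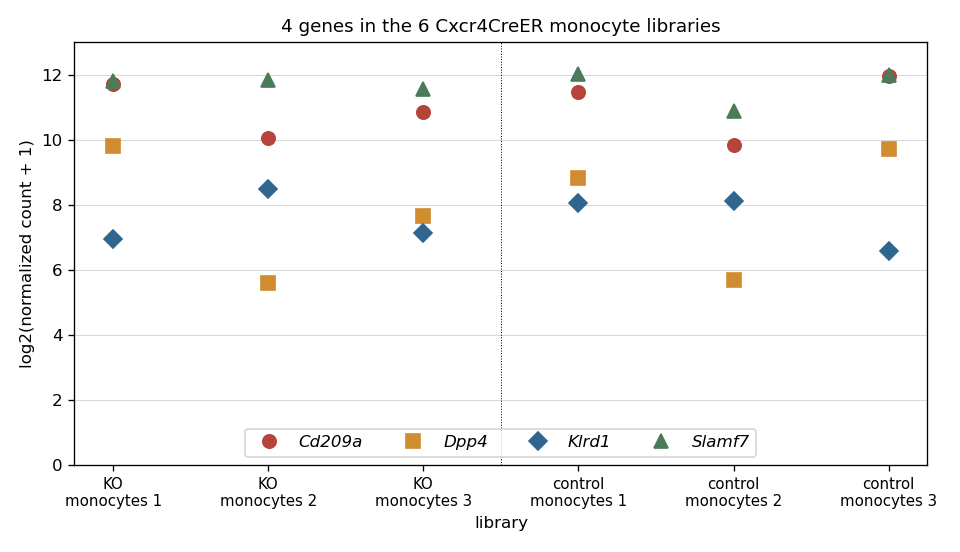
Levels of Cd209a, Dpp4, Klrd1 and Slamf7 as log2(normalized count + 1) in each of the 3 KO and 3 control monocyte libraries of the Cre table. Cd209a and Dpp4 share their low libraries, KO monocytes 2 and control monocytes 2. Klrd1 is highest in KO monocytes 2 (362 normalized counts), while control monocytes 2 (277) lies close to control monocytes 1 (264).

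Over these 6 libraries, which share tissue, kit and processing, Pearson's r between the log2 levels of Cd209a and Dpp4 was 0.99 (permutation p = 0.00556, adjusted over 6 pairs 0.0333) and Spearman's rho 0.89 (permutation p = 0.0333, adjusted 0.0667). Without the 2 libraries farthest from the Cd209a median, r was 0.96. Klrd1 ran against Cd209a with r = -0.77 (permutation p = 0.0986, adjusted 0.148) and rho = -0.89 (adjusted 0.0667), and r was -0.35 without the 2 farthest libraries, so this relation rests on those. The 4 genes entering these pairs were those read in all 6 libraries, a choice made after their values were seen.

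The genes whose levels over the 12 Cre libraries ran closest to each member were taken by Pearson's r on the log2 scale, given without a test, since both populations enter and any gene high in monocytes scores well. They were Gda (r = 0.971), C3 (0.970) and Apoe (0.969) for Cd209a, and Esd (0.986), Slpi (0.980) and Selenow (0.980) for Dpp4. For Slamf7 they were Trem1 (0.992), Hdc (0.983) and Clec4b1 (0.980), and for Klrd1 Mcub (0.993), Plbd1 (0.993) and Dmkn (0.984). Fscn1 ran closest to Abcg2 (0.978), Zfp426 (0.970) and Mtus1 (0.965), which in the 8 GFP libraries had r = 0.19, 0.84 and 0.81 with it. The scattered genes had neighbours as well, Phf23 (0.901), Slc10a7 (0.891) and Lancl2 (0.856) for Zbtb46, Tbcd (0.961), Upk1b (0.959) and Plekha5 (0.959) for Batf3, and Rdh14 (0.957), Zfp748 (0.936) and Nat6 (0.904) for Il12b.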

How the data were processed

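RNA of 20 libraries in 6 groups was measured. Per the submitters' processing notes, the GFP table was made with CASAVA 1.82 and DESeq2 and the Cre table with bcl2fastq 2.20, kallisto and DESeq2; the genome build, annotation and GFP aligner were not given in the sources used here. Per the labels' protocols, Nugen Ovation SoLo on total RNA gave the GFP libraries, and SMART-Seq2 on polyA RNA the Cre ones. The deposited values are a signal, normalized counts per gene, scaled by the authors within each table, so no level is compared between tables. In both, 100% of values above 0 were whole multiples of the library's smallest value (within 0.01), from which whole reads were recovered. Names altered in the Cre table (657) were restored, and 24 date-like names kept; Rn45s took 22.1% to 48.3% of GFP reads.

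The log2 of each value plus 1 was tested with limma 3.58.1 in R 4.3.3 (moderated test with trend, two-sided, Benjamini-Hochberg over all tested genes, threshold 0.05), with 2 groups in the GFP fit and 4 in the Cre fit. Exact permutation tests used SciPy 1.17.1. Other settings tried were no filter, a filter at 50, a pseudocount of 10, upper quartile and total-read scaling, edgeR 4.0.16 and DESeq2 1.42.0 on recovered counts, the animal as a block, fewer groups, and leaving out libraries. The fits were tested on simulated counts with large planted differences and the same spread for all genes. Those counts did not carry the spread between libraries seen for the members, so they do not show how the fits behave there. Libraries of 1 GFP animal or pool share it by the labels (2 mice, 5 mice and 2 single mice; correlations of deviations 0.238, 0.198, 0.127 and -0.113), and 2 control and 2 KO animals gave both Cre populations (-0.0555 to 0.00955). Other replicates are separate samples by their labels.

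The members and lists were chosen with earlier results of these data known. All 8 members are named; per list, up to 3 called genes with the largest log2 fold per comparison; partners, paralogs and markers where a result turns on them; and the 3 nearest genes per member, without predicted genes, pseudogenes and receptor segments. Floors and counts cover counting error only, since without molecular identifiers a read is no independent molecule. Sequences came from RefSeq tables.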

Additional observations from a re-analysis of the deposited data

Results flagged for a closer look

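In 5 of the 16 groups of 4 GFP libraries, the highest library stood apart from the other 3 by Dixon's criterion at 95%. These were Zbtb46 in GFP monocytes 1 (5.01 normalized counts, against at most 0.312 in the others) and in GFP microglia 2 (6.02, against 0), Il12b in GFP monocytes 1 (11.3, against 0), Klrd1 in GFP microglia 2 (1.29, against 0) and Batf3 in GFP monocytes 1 (6.89, against at most 0.936). All are low values, and each of these groups otherwise lies at or near 0. With 3 libraries at 0 the criterion is met whatever the highest holds, as for Zbtb46 and Klrd1 in microglia and Il12b in monocytes. Chance meets it in about 1 of 20 groups for normally distributed values, which counts near 0 are not. Cd209a and Dpp4 in GFP microglia, at 0 in all 4 libraries, could not be examined.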

How the results depend on the processing

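The count of members called in GFP monocytes against GFP microglia was 1; it was 0 without a filter, with a filter at 50 and with the animal as a replicate block, 2 (Fscn1 and Slamf7) with DESeq2 or when the 3 GFP libraries with few genes detected were dropped, and 0 to 1 leaving out a library. In KO monocytes against KO microglia it was 4, with 2 by edgeR (Cd209a and Dpp4) and 4 to 5 leaving out a library. In control monocytes against control microglia it was 4, with 3 by edgeR, 3 by DESeq2 (Dpp4, Klrd1 and, lower, Il12b) and 4 under every omission of a library. In KO against control monocytes it was 0, with 2 by DESeq2. The replicate block changed no other call of a member. Of the 285 values of other named genes under alternatives, 35 lost the call and 0 changed sign. DESeq2 gave no adjusted p for Slamf7 in any Cre comparison. The cause of these changes was not tested.

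Calls over all genes moved more: 33 to 1058 in the GFP table (main 70, block 60), 480 to 1570 in KO monocytes against KO microglia (849), 478 to 1614 in control mice (810), 0 to 338 and 0 to 108 in KO against control monocytes (5) and microglia (4), and 0 to 276 for the interaction (0), with the highest from DESeq2 except in the GFP table, where it came on dropping those 3 libraries.

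Of 763 values of member differences under alternatives, 56 changed sign, all of differences not called. Beyond omissions of a library, these were Zbtb46 in the GFP table (-0.012 with a pseudocount of 10, -0.41 on dropping those 3 libraries), in KO monocytes against microglia (0.023, edgeR) and in KO against control microglia (0.013 by total reads, 0.66 edgeR, 0.68 DESeq2). Il12b in KO monocytes against microglia was -0.0048 with a pseudocount of 10, -0.033 and -0.20 by upper quartile and total reads, -0.68 by edgeR, -0.69 by DESeq2 and -0.0014 with the block. Klrd1 in KO against control monocytes was 0.053, Batf3 in microglia -0.96 and Fscn1 in the interaction 0.062 by edgeR, and Batf3 -0.95 by DESeq2.

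Leaving out a library moved these differences across 0. Between populations, Batf3 (-1.13 to 0.22) and Zbtb46 (-0.57 to 0.74) did so in the GFP table, Zbtb46 (-3.23 to 0.84) and Il12b (-0.91 to 1.03) in KO and Zbtb46 (-1.53 to 2.06) in control mice. In KO against control monocytes the ranges were -0.85 to 0.21 for Cd209a, -1.58 to 0.66 for Dpp4, -2.68 to 0.14 for Fscn1, -0.55 to 0.24 for Klrd1, -0.28 to 0.29 for Slamf7 and -3.47 to 0.47 for Zbtb46. In microglia they were -1.55 to 2.52 for Batf3, -2.27 to 1.27 for Cd209a and -1.81 to 1.25 for Zbtb46, and in the interaction -1.50 to 2.05 for Cd209a, -1.58 to 0.66 for Dpp4, -2.25 to 0.57 for Fscn1 and -3.45 to 0.62 for Zbtb46.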
